A study of Mus musculus with 4 samples.

Results

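Solute carriers are membrane proteins that move amino acids, sugars, fatty acids, nucleosides, ions and metals across the plasma membrane and the membranes of mitochondria, vesicles and lysosomes. Their genes are numbered by family, and each family carries one kind of cargo or a few related ones. In fat cells they take up glucose and fatty acids and carry acyl groups, phosphate and coenzyme A into mitochondria. The genes described here are all those on autosomes whose symbol begins with Slc and a number and that had at least 1 exonic SNP in the allele counts, with the exception of Slc38a4. There were 137 such genes among 8016 autosomal genes with an exonic SNP. They were chosen by symbol and not by allele ratio, though each needed a SNP listed in the allele counts. They fell into 38 families by number and lay on all 19 autosomes. One of them, Slc9a3r2, carries an Slc symbol but encodes a scaffold protein rather than a carrier.

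The RNA came from gonadal fat pads of F1 mice of C57BL/6J (the B allele) and DBA/2J (the D allele), fed chow and 8 weeks of age by the labels, where the study's methods give another age. Both directions of the cross were used, named with the mother first: BxD has a C57BL/6J mother and DxB a DBA/2J mother. There was 1 sequenced RNA pool for each cross and sex, made of 3 BxD females, 2 DxB females, 3 BxD males and 3 DxB males, so animals were not measured singly and the 4 pools are the replicates. Reads carrying the B or the D base at SNPs between the strains were counted in each pool, which compares the 2 alleles inside the same cells. A ratio of D to B reads is given below as log2, after the B and the D library of each pool were scaled separately. Values under 0 mean more B reads relative to library size. Equal reads therefore give a value a little over 0, as in Slc16a13 with 329 B and 329 D reads (0.14).

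Counted autosomal reads numbered 3344020 to 4241289 per pool. The reads at 166 X-chromosome SNPs went against the labels of 2 libraries: the library labelled DxB female had 98.6% B reads there and the library labelled BxD male 57.4%, while the BxD female pool had 53.99% and the DxB male pool 16.9%. The names of the deposited tables swap these 2 libraries. Gene counts equalled the study's own in 99.9% of 1996 genes by the table names and in 1.2% by the labels. The X reads and these counts thus both follow the table names, and by them a comparison by label sets wrongly named pools against each other. Each comparison by parent or sex is given under both identities. The comparison of strains uses neither. Of the 12 adipocyte markers 4 had a SNP and summed to 82665 to 109454 CPM (reads scaled to an equal total) per pool; the epididymal markers Gpx5 and Adam7 had reads in the DxB male pool only.

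Of the 137 genes, 130 kept a count once SNPs within 18 bp of a counted one and repeated positions were left out. The other 7 (Slc22a12, Slc45a4, Slc16a8, Slc48a1, Slc5a10, Slc26a1 and Slc39a13) shared their SNPs with a gene listed before them. The 130 genes held 825 counted SNPs, of which 391 lay in a 3′ UTR, 263 were synonymous, 86 non-synonymous and 2 gained a stop. Read numbers ran from 1 to 70639 per gene with a median of 270, and 19 genes had fewer than 10 reads. These low genes allow no statement in either direction.

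A choice of SNPs from the carriers described below is printed here with 12 bases of reference on each side, from the plus strand of mm9. The B base stands in capitals at position 13, counted from 1 at the 5′ end of the window. The first 3 are the SNPs of the 3 called genes that have only 1 counted SNP, the next 3 are all the SNPs of Slc25a3, and the last 3 are SNPs with few or no D reads in genes with other SNPs.
Slc6a6 SNP 1: ttccagtggctgTtgactcagccac
Slc25a16 SNP 1: cggcggccctggCggcggccgagcc
Slc38a7 SNP 1: gtctggcgccacAcccccccccccc
Slc25a3 SNP 1: cttcacagagtcGtagatgaaccac
Slc25a3 SNP 2: gacctgagacgcGgtgctgcctttc
Slc25a3 SNP 3: gcgggaacgccgGggcggagctggg
Slc12a9 SNP 1: gcagggcccactTggggcgggggga
Slc26a11 SNP 3: ccggactggctgTggtacctctgat
Slc16a4 SNP 2: tgctggtggctaCctggcactaata
With the D bases listed in the allele counts these windows differ by T13G in Slc6a6 (chr6:91706620-91706644), C13G in Slc25a16 (chr10:62383519-62383543) and A13C in Slc38a7 (chr8:98360420-98360444). The 3 SNPs of Slc25a3 are each G13A (chr10:90579787-90579811, chr10:90579980-90580004 and chr10:90586328-90586352). The others are T13G in Slc12a9 (chr5:137756093-137756117), T13G in Slc26a11 (chr11:119230517-119230541) and C13A in Slc16a4 (chr3:107106154-107106178). No read carried the listed D base at the SNPs of Slc25a16, Slc38a7, Slc12a9 and Slc16a4 printed here, so these reads do not show that the D strain has it.

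The first comparison asked which carriers differed in the expression of their B and D alleles. In the edgeR test 18 of the 130 genes passed an adjusted p of 0.05, of which 13 had more B reads and 5 more D reads. That is 13.8% of them, against a background of 17.9% of the 7872 genes tested (1018 genes or 12.9% with more B and 392 or 4.98% with more D reads). When the 2 alleles of a pool were scaled alike, by 1 size, 18 carriers had more B and 3 more D reads, 16.2% of them in all beside 17.8% of all genes (14.8 and 3.01% by direction); this scaling moved the median of all genes by -0.13 on the log2 scale. Each of the 18 genes had the same direction in all 4 pools, and 11 differed by a log2 ratio of 1 or more. The median log2 ratio of the 130 genes was -0.05, beside -0.02 over all genes. Before scaling, the ratio of all counted B to D reads ran from 1.13 to 1.19 over the pools. The reference genome is essentially that of the B strain, and the study reports preferential mapping of B alleles. It states more power to detect an excess of B than of D. Separate scaling evens out library totals and not single SNPs. How far mapping added to the calls with more B reads was not tested. With the pool as a replicate block, since both alleles come from the same animals, 36 carriers were called (24 with more B and 12 with more D reads) or 27.7%, against a background of 28.4% (16.7 and 11.7%), and these 36 included all 18.

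**Figure D1:**
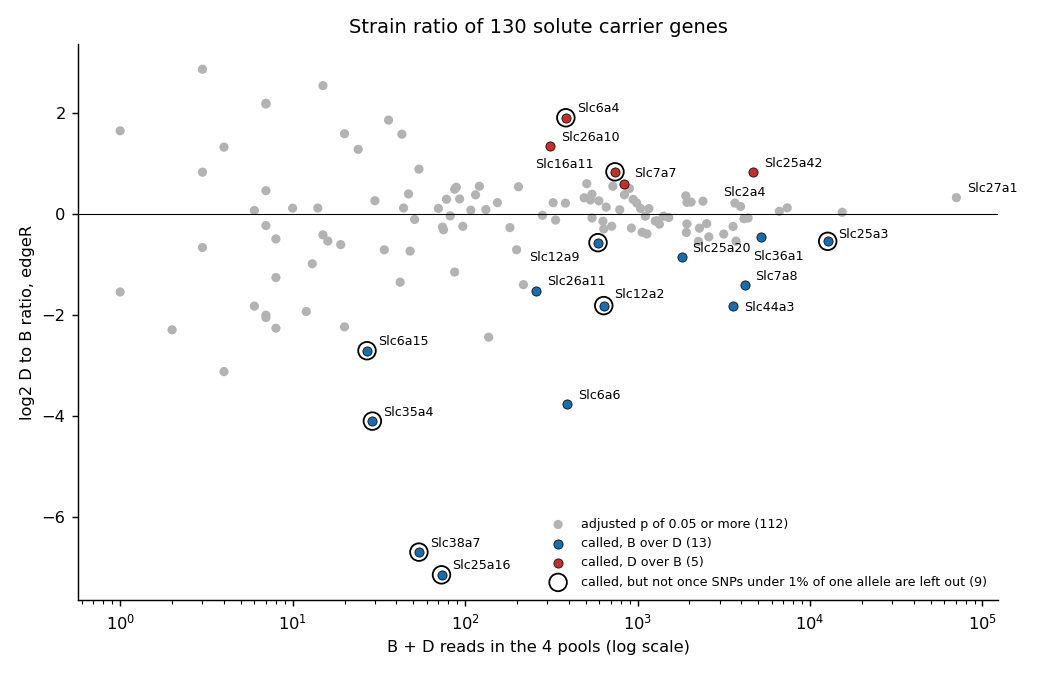
Each point is 1 of 130 solute carrier genes, with its B and D reads in the 4 pools on a log axis and its log2 D to B ratio from edgeR. The 18 called genes are coloured, and the 9 that were not called once SNPs with under 1% of one allele were left out are circled; the most deeply read gene, Slc27a1, lies at 0.33.

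The families of amino acid carriers, grouped by number and so with the monoamine transporters Slc6a2 and Slc6a4 among them, held 7 of the 18 calls among 28 counted genes, 5 with more B and 2 with more D reads (beside 17.9% of all genes called). The strongest call was Slc6a6, the taurine transporter. Its single SNP, in the 3′ UTR, had 121, 100, 76 and 69 B reads in the BxD female pool, the library labelled DxB female, the library labelled BxD male and the DxB male pool, beside 7, 5, 6 and 6 D reads; this order of pools is kept for all lists below. Every pool was far on the B side, at a log2 ratio of -3.76 ± 0.23 (SE, n = 4 pools, adjusted p = 1.37e-07). The D share was 6.15% (95% exact binomial interval 3.98 to 9.02%, counting error only). The gene has no other SNP with which this ratio could be compared, and its 15 B and 10 D intronic reads gave -0.44 (adjusted p = 0.778).

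Slc7a8, the light chain of a large neutral amino acid transporter, had B reads of 719, 802, 885 and 687 and D reads of 337, 263, 275 and 208. B exceeded D in each pool, and the BxD female pool lay nearest to equality. The log2 ratio was -1.41 ± 0.13 (adjusted p = 5.53e-06). All 12 counted SNPs pointed the same way with D shares from 22.7 to 30.7%, from the 3′ UTR to the most 5′ coding SNP. Intronic reads of the same gene, 314 B and 166 D, gave -0.81 ± 0.21 (adjusted p = 0.00258).

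Slc36a1, a proton-coupled amino acid transporter of lysosomes and plasma membrane, had the most counted SNPs of any carrier. Its B reads were 877, 797, 795 and 639 and its D reads 557, 537, 534 and 446. The pools hardly differed among themselves, and 28 of the 33 SNPs had more B reads. The log2 ratio was -0.45 ± 0.10 (adjusted p = 0.00563, and 0.0509 without the library labelled DxB female). Its 122 B and 36 D intronic reads gave -1.61 ± 0.34 (adjusted p = 5.02e-05).

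Slc6a4, the serotonin transporter, had the largest ratio toward D among the called carriers. Its B reads were 46, 10, 15 and 13 and its D reads 177, 32, 72 and 19. D exceeded B in each pool, but the DxB male pool, at 0.66, stood apart from the other 3 at 1.77 to 2.35. The log2 ratio was 1.91 ± 0.59 (adjusted p = 0.0427). All 8 SNPs had more D reads, with D shares from 64.3 to 84.6% at the 7 SNPs of 10 or more reads. The call held without the BxD female pool (adjusted p = 0.0193) and was lost without each of the others: adjusted p was 0.0675 without the library labelled DxB female, 0.168 without the library labelled BxD male and 0.0651 without the DxB male pool. It was also lost with at least 10 counts per gene (0.0501), with 1 library size per pool (0.0663) and without SNPs under 1% of one allele (0.0887). Intronic reads of Slc6a4, 33 B and 105 D, gave 1.75 ± 0.36 (adjusted p = 2.9e-05).

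Slc7a7, the light chain of a basic and neutral amino acid exchanger, had 94, 95, 97 and 64 B reads and 147, 119, 108 and 106 D reads. Each pool was on the D side, the library labelled BxD male least so. The log2 ratio was 0.59 ± 0.13 (adjusted p = 0.0075, but 0.0601 without the BxD female pool and 0.0739 without the DxB male pool). Its intronic reads lay on the other side, with 133 B and 81 D (log2 -0.55, adjusted p = 0.256). The other 2 amino acid carriers called had few D reads. Slc38a7, a lysosomal glutamine transporter, had 17, 13, 15 and 9 B reads and 0 D reads at the 1 SNP it has, so B was at least 18-fold higher over the pools; 0 of 54 reads allows a D share of up to 5.56% (3 reads of the total, the limit used below for 0 reads as well). The adjusted p of Slc38a7 was 0.000229, and the bound holds only if the D strain carries the listed D base. Slc6a15, a neutral amino acid transporter best known from brain, had 24 B and 3 D reads over 8 SNPs (log2 -2.71 ± 0.82, adjusted p = 0.04). Its call was lost without any one of the 4 pools, at adjusted p from 0.0522 to 0.183, and with DESeq2 at 0.062.

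**Figure D2:**
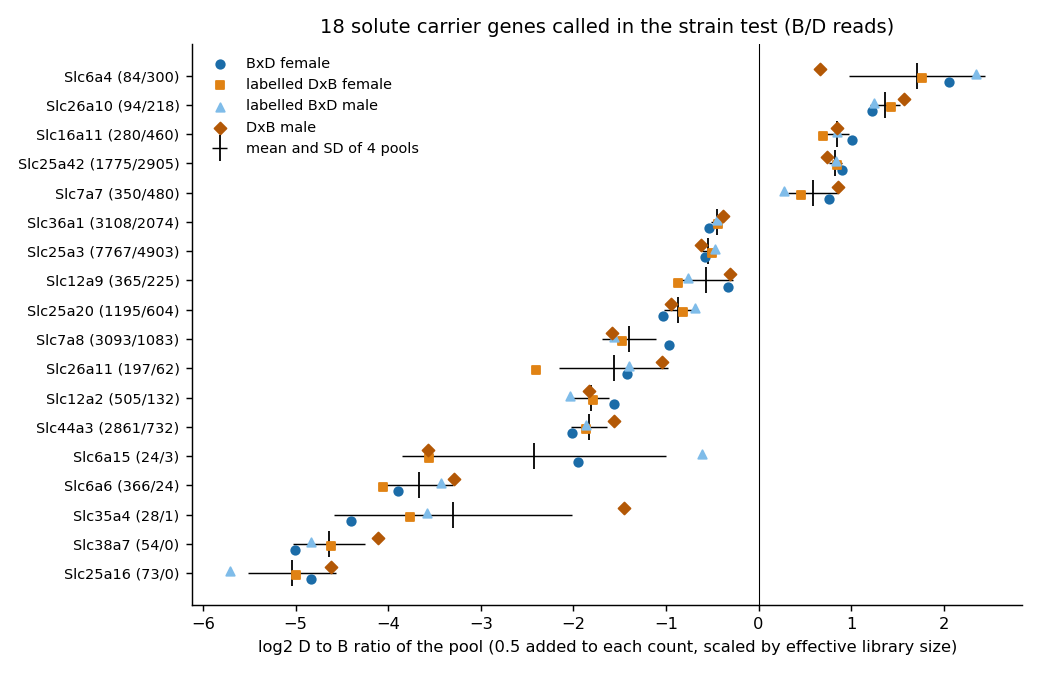
Log2 D to B ratio of each of the 4 pools for the 18 called carriers, with 0.5 added to each count; the bar is the mean and the SD of the pools, and B and D reads follow each symbol. No pool of any of the 18 crosses 0, and Slc6a15, Slc35a4 and Slc6a4 are the genes whose pools spread most.

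The mitochondrial carriers of the inner membrane (family 25) had 4 calls among 13 counted genes, 3 with more B and 1 with more D reads. Of all genes 17.9% were called, 12.9% with more B and 4.98% with more D reads. Without SNPs under 1% of one allele 2 of the family were called, beside 9.26% of all genes. Slc25a42, which carries coenzyme A into mitochondria, had B reads of 502, 401, 544 and 328 and D reads of 861, 656, 890 and 498. The 4 pools lay close together, between 0.74 and 0.90. The log2 ratio was 0.83 ± 0.15 (adjusted p = 0.00163). All 5 counted SNPs had more D reads, at D shares from 56.7 to 66.0%. Its introns gave the same value from other reads, 941 B and 1535 D, at 0.83 ± 0.17 (adjusted p = 2.39e-05).

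Slc25a20, which exchanges carnitine and acylcarnitine so that fatty acids can enter mitochondria, had B reads of 306, 280, 360 and 249 and D reads of 137, 144, 205 and 118. Every pool was on the B side at -0.86 ± 0.17 (adjusted p = 0.00341). Its 3 SNPs, 2 in the 5′ UTR and 1 synonymous, all had more B reads, whereas its introns held 91 B and 93 D reads (0.15, adjusted p = 0.813).

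Slc25a3, the mitochondrial phosphate carrier, showed how much 1 SNP can weigh. Its B reads were 1942, 1853, 2305 and 1667 and its D reads 1192, 1193, 1531 and 987, at -0.54 ± 0.14 (adjusted p = 0.0217). SNP 2 alone held 3571 B and 3 D reads, a D share of 0.0839% at a synonymous site. SNP 1 had 1936 B and 2201 D reads and SNP 3 had 2260 B and 2699 D, so both leaned to D, at 53.2% (51.7 to 54.7%) and 54.4% (53.0 to 55.8%). Without SNPs of under 1% of one allele, SNP 2 among them, the ratio was 0.30 (adjusted p = 0.315). The exonic call of Slc25a3 was also lost without the library labelled DxB female (adjusted p = 0.088) and without the DxB male pool (0.127). Intronic reads, 2337 B and 818 D, gave -1.37 ± 0.17 (adjusted p = 3.7e-14), a direction opposite to SNPs 1 and 3. The last gene of the family, Slc25a16, had 15, 17, 28 and 13 B reads at its only SNP, a non-synonymous one, and 0 D reads. B was at least 24.3-fold higher (adjusted p = 0.000212), and 0 of 73 reads allows a D share of up to 4.11%. These limits hold only if the D strain carries the listed D base.

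Reads with almost no D base were a feature of single SNPs in other carriers too. Of 575 carrier SNPs with 10 or more reads, 15 had a D share under 1% and 0 a B share under 1%; the 15 lay in 15 genes. Over all 33947 SNPs of that depth the shares were 4.76% under 1% D and 0.318% under 1% B. The study sequenced DNA of D mice at some SNPs with B reads only, and none of those tested was verified. No solute carrier was among the genes it tested. Leaving out of all genes every SNP with under 1% of either allele, whatever its depth, brought the called carriers to 9 of 120 (6 with more B and 3 with more D), against a background of 9.26% (5.62 and 3.64%). Of the 18 genes 9 kept their call, 2 (Slc25a16 and Slc38a7) had no SNP left, and 7 fell short of the threshold. The 9 that kept it were Slc6a6, Slc44a3, Slc26a11, Slc7a8, Slc25a20, Slc36a1, Slc26a10, Slc25a42 and Slc7a7. In Slc6a4 and Slc16a11 the ratio itself stayed close, at 1.86 and 0.79, as neither has such a SNP.

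Among the called ion carriers, Slc12a2 and Slc12a9 each had such a SNP. Slc12a2, the sodium, potassium and chloride cotransporter of chromosome 18, had B reads of 117, 172, 109 and 107 and D reads of 36, 45, 24 and 27, a ratio of -1.81 ± 0.22 (adjusted p = 7.93e-05). A single non-synonymous SNP held 318 B and 0 D reads, and a synonymous one in the same exon 33 B and 1 D. The 3 SNPs nearer the 3′ end had 40 B and 26 D, 42 B and 39 D, and 72 B and 66 D reads, each far closer to equality, and the ratio without the SNP of 318 B reads was -0.41 (adjusted p = 0.509). Slc12a9, a less studied member of that cotransporter family, had 365 B and 225 D reads (-0.57 ± 0.16, adjusted p = 0.0299). Its SNP 1 gave most of the excess, with 121 B and 0 D reads, while SNPs 2 and 3 had 52 B and 51 D, and 64 B and 63 D. Without SNP 1 the ratio of Slc12a9 was -0.02 (adjusted p = 0.987); the call was also lost without the BxD female pool (0.054), the library labelled DxB female (0.183) or the library labelled BxD male (0.141).

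Slc26a11, an anion transporter that carries sulphate, had B reads of 65, 49, 44 and 39 and D reads of 22, 8, 15 and 17. All pools were on the B side at -1.52 ± 0.28 (adjusted p = 0.00191). SNP 3, with 84 B and 1 D reads (D share 1.18%), lay just above the limit of 1%; the other 3 SNPs held 113 B and 61 D reads and each had more B. Its intronic reads, 220 B and 112 D, gave -0.87 ± 0.24 (adjusted p = 0.00439, and 0.125 without the DxB male pool). Slc26a10, of the same anion exchanger family, went the other way. Its B reads were 38, 18, 25 and 13 and its D reads 82, 45, 55 and 36, and its pools lay between 1.22 and 1.57. The ratio was 1.34 ± 0.27 (adjusted p = 0.00383), and 6 of its 7 SNPs had more D reads.

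**Figure D3:**
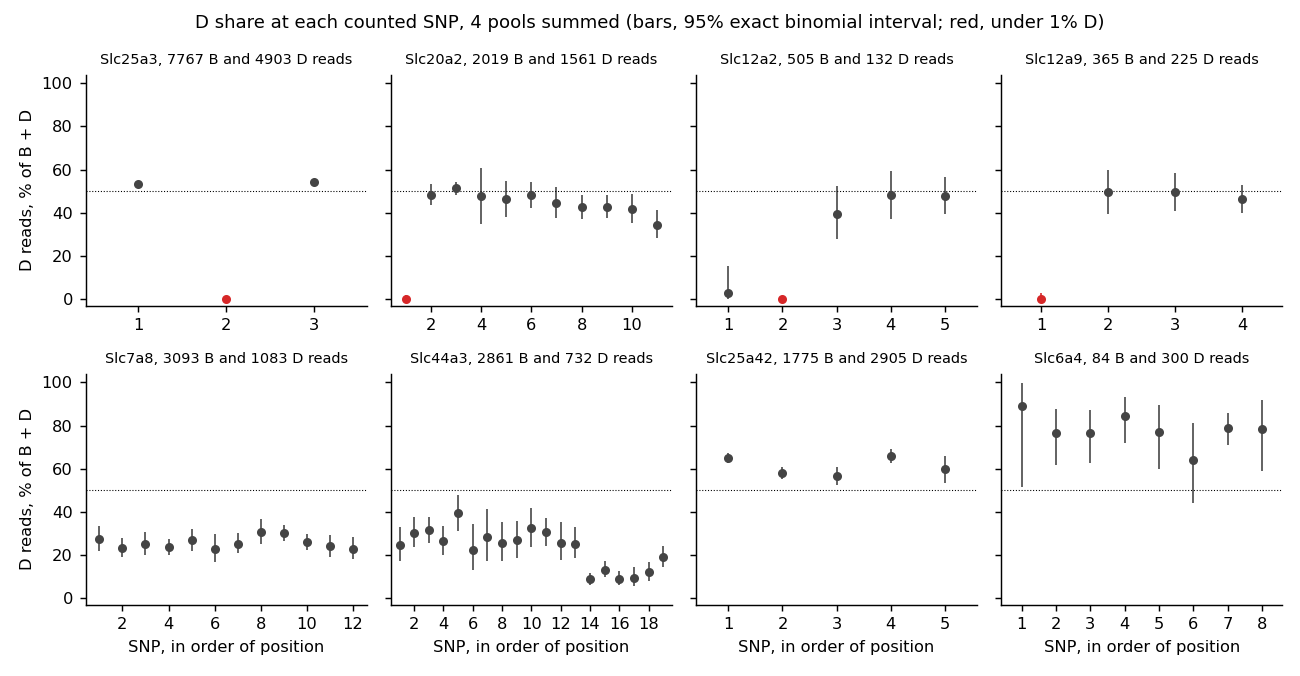
D reads as a percentage of B and D reads at each counted SNP of 8 carriers, ordered by position, with 95% exact binomial intervals that cover counting error only; red points have under 1% D. In Slc25a3, Slc20a2, Slc12a2 and Slc12a9 a red SNP lies beside SNPs far nearer to 50%, apart from the first SNP of Slc12a2 at 2.94%, whereas the SNPs of Slc7a8, Slc44a3, Slc25a42 and Slc6a4 lie on the same side of 50%.

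Slc44a3, of the choline transporter-like family, had B reads of 707, 879, 709 and 566 and D reads of 160, 219, 178 and 175. Each pool had about the same strong excess of B, at -1.82 ± 0.16 (adjusted p = 4.88e-06), and all 19 SNPs in 10 exons agreed in direction. Its introns gave -1.86 ± 0.20 from 607 B and 152 D reads (adjusted p = 1.77e-18). The exons were not alike, a feature noticed once the values had been seen. The 6 SNPs of the most 5′ exon (chr3:121235079-121235262, mm9, gene on the minus strand) had D shares of 10.99, 12.2, 10.97 and 13.6% in the 4 pools. The 13 SNPs of the 9 other exons had 27.05, 26.4, 30.9 and 32.98%. The ranges did not overlap, and no test was made of a contrast picked in this way. One read can cover several of the 6 SNPs, so they are not independent.

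The calls of Slc16a11 and Slc35a4 complete the 18. Slc16a11, a monocarboxylate transporter, had B reads of 75, 103, 59 and 43 and D reads of 139, 152, 98 and 71, with 9 of 10 SNPs on the D side. The pools lay between 0.69 and 1.01, and the ratio was 0.84 ± 0.23 (adjusted p = 0.0238). The call of Slc16a11 was lost without the BxD female pool (0.104), the library labelled BxD male (0.075) or the DxB male pool (0.0595), and with 1 library size per pool (0.0592). Slc35a4, of the nucleotide sugar transporter family, had 28 B and 1 D reads over 5 SNPs (-4.10 ± 0.84, adjusted p = 0.00403; 90 B and 59 D intronic reads gave -0.48, adjusted p = 0.448). Grouped by family number, no gene of the families of sugar carriers (10 counted, Slc5a7 and other carriers of ions and vitamins among them), fatty acids (4), organic ions (4), zinc and other metals (12) or of the vesicular and lysosomal group (8) was called. With the replicate block each of the 5 groups gained 1 to 4 calls, among them Slc27a1 and the zinc transporter Slc30a2; the gain of the first group was Slc5a7, which carries choline.

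Of the 20 transporters listed for their known role in fat, 12 were counted and 8 had no exonic SNP listed (Slc27a4, Slc25a1, Slc25a10, Slc16a1, Slc1a3, Slc1a5, Slc39a14 and Slc22a3). Of the 12, 5 are among the calls above (Slc6a6, Slc7a8, Slc12a2, Slc25a20 and Slc36a1), beside 17.9% of all genes called. The call of Slc12a2 was lost without SNPs under 1% of one allele. Slc27a1, a fatty acid transport protein and the carrier with the most reads, had B reads of 10299, 9818, 7023 and 5711 and D reads of 12547, 11316, 7457 and 6468. D was ahead in each pool by a small margin, and the ratio of 0.33 ± 0.17 did not pass the test (adjusted p = 0.252); with the replicate block it did, at 0.32 (adjusted p = 0.00127). Slc2a4, the glucose transporter that insulin brings to the surface of fat and muscle cells, had 2346 B and 2027 D reads (-0.08 ± 0.36, adjusted p = 0.936). Its pools ran from -0.33 to 0.01, and 7 of its 9 SNPs had slightly more B reads.

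Among the other listed genes, the 2 markers of adipocyte surface Slc7a10 and Slc36a2, which carry small neutral amino acids, each had 1 counted SNP. Slc7a10 had 2284 B and 1442 D reads and lay on the B side in each pool (-0.54 ± 0.26, adjusted p = 0.225, and -0.55 with adjusted p = 0.00237 under the block). At a second SNP of Slc7a10 that is listed under another gene as well, the reads were 1918 B and 1598 D, and its introns held 2855 B and 2885 D. Slc36a2 had 877 B and 1028 D reads and lay on the D side in each pool (0.36 ± 0.28, adjusted p = 0.467, and 0.39 with adjusted p = 0.0169 under the block). The glucose transporter Slc2a1 (-0.02), the phosphate transporter Slc20a1 (0.26) and the iron exporter Slc40a1 (-0.36) did not pass either test. Nor did the other deeply read genes Slc9a3r2 (0.04), Slc3a2, the heavy chain of amino acid transporters (0.12), and the zinc transporter Slc39a7 (-0.09). Before scaling, Slc9a3r2 had 7934 B and 7434 D reads and Slc3a2 3707 B and 3674 D, so B was slightly ahead in both. Of the 31 carriers with 1000 reads or more that were not called, 29 lay within 0.5 of 0 on the log2 scale and the full range was -0.54 to 0.36.

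Of the 18 further carriers called with the replicate block, 11 had more B and 7 more D reads; Slc5a7, Slc7a10, Slc24a3, Slc25a13 and Slc35a5 among them were also called in another alternative fit. The phosphate transporter Slc20a2 had 1 SNP in the 5′ UTR with 224 B and 0 D reads and 10 others with 1795 B and 1561 D, at D shares from 34.4 to 51.3%. Its ratio was -0.24 (adjusted p = 0.363, and 0.0452 under the block), and -0.12 without the SNP of 224 B reads. Slc5a7, the choline transporter of cholinergic neurons, had B reads of 3, 27, 48 and 39 and D reads of 0, 9, 6 and 5 (-2.44, adjusted p = 0.0613, and 0.00418 under the block). Slc16a4, a monocarboxylate transporter, had 10 B and 2 D reads and was not called (adjusted p = 0.265), but was with all exonic SNPs (log2 -2.90, adjusted p = 0.0274). Its SNP 2, where the D base gives a stop codon by the annotation, had 9 B and 0 D reads, which allows a D share of up to 33.3%.

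Intronic SNPs gave a second view of the strain comparison, from other reads of the same pools. Of 111 carriers with an intronic count, 13 were called (10 with more B, 3 with more D), beside a background of 10.6% of 8822 genes (6.42 and 4.15%); DESeq2 called 11, beside 7.3%. With the replicate block 18 were called (12 with more B, 6 with more D), beside 13.4% (7.64 and 5.8%); these were the 13 and Slc3a2, Slc25a35 and Slc27a1 with more D and Slc4a4 and Slc38a3 with more B reads. Among the 15 carriers called in exons with 10 or more intronic reads, 13 had the same direction in introns, beside 67.5% of 831 such genes overall. The exceptions were Slc7a7 and Slc25a20. Where exons and introns were both called, all 7 carriers had the same direction in their summed reads (88.5% of 243 genes over all genes). In 3 of them (Slc44a3, Slc25a42 and Slc6a4) both ratios lay within 0.2 of each other on the log2 scale. Another of the 7, Slc25a3, had its exonic B excess at SNP 2 alone, while its SNPs 1 and 3 leaned to D. SNPs under 1% of one allele were not left out of the intronic counts.

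**Figure D4:**
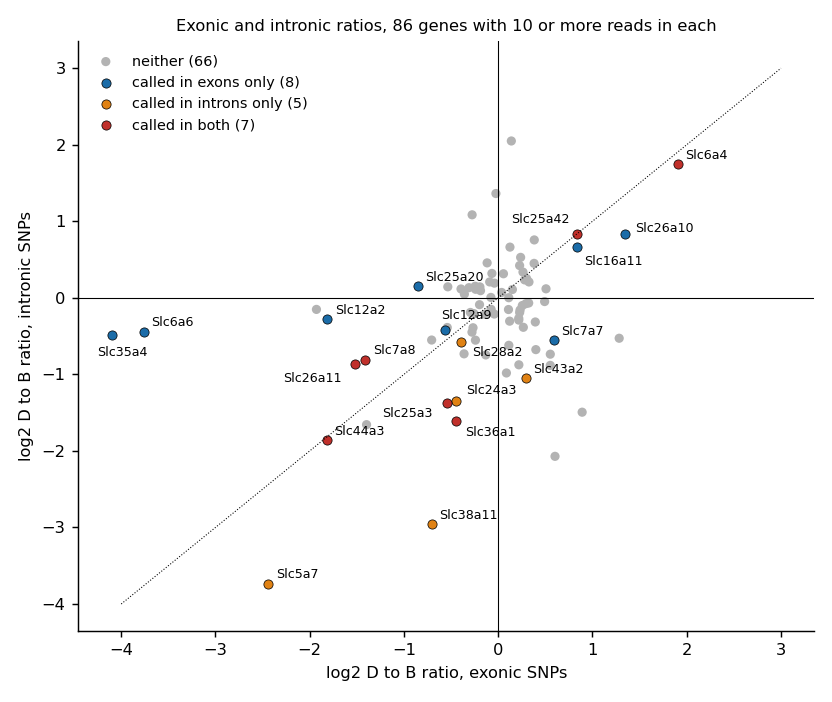
Log2 D to B ratio at exonic SNPs against that at intronic SNPs for 86 carriers with 10 or more reads in each; the dotted line marks equal ratios. Slc44a3, Slc25a42 and Slc6a4 lie near the line, Slc36a1 and Slc25a3 below it, and Slc6a6 and Slc35a4 far to the left with intronic ratios of -0.44 and -0.48.

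In introns 6 carriers were called that were not called in exons. Slc28a1, a concentrative nucleoside transporter, had intronic B reads of 9, 21, 10 and 14 and D reads of 252, 258, 354 and 168. D exceeded B many times over in each pool, at 4.36 ± 0.22 (adjusted p = 7.95e-81, and 9.77e-41 with DESeq2), while its exons held 4 B and 3 D reads. Slc38a11, a less studied member of an amino acid transporter family, had intronic B reads of 133, 42, 50 and 29 and D reads of 10, 5, 8 and 5 (-2.96 ± 0.30, adjusted p = 3.15e-20), beside 22 B and 12 D exonic reads. Both genes had far more intronic than exonic reads at SNPs. Whether these intronic reads came from the carrier's own transcript was not tested, and their spread over single SNPs is not given here. Slc24a3, a sodium, potassium and calcium exchanger, had 525 B and 189 D intronic reads (-1.35 ± 0.20, adjusted p = 5.04e-10), with the exonic ratio at -0.45 (adjusted p = 0.0942, and 0.00313 under the block). The intronic reads of Slc5a7 numbered 34 B and 2 D (-3.74 ± 0.82, adjusted p = 0.000137). The intronic calls of Slc28a2 (-0.57) and Slc43a2 (-1.05) were lost with DESeq2, at adjusted p = 0.176 and 0.25. By edgeR the call of Slc28a2 was also lost without the BxD female pool (0.139), the library labelled BxD male (0.144) or the DxB male pool (0.0859). That of Slc43a2 was lost without the library labelled DxB female (0.0787), the library labelled BxD male (0.0967) or the DxB male pool (0.132).

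The reciprocal crosses ask whether an allele's reads depend on the parent it came from. No carrier passed the edgeR test of maternal against paternal reads, under the labels (0 of 130, beside 0% of all genes) or under the names of the tables (0 of 130, beside 0.0635%). Slc38a4 was left out of the members and so is not among these 130. By either identity 1 carrier had an unadjusted p under 0.05, and DESeq2 called 0. The main edgeR test of parents held neither strain nor pool as a term, so differences between them added to its error. Of all 7872 genes, 36 with the labels and 38 with the table names had an unadjusted p under 0.05, fewer than chance gives. The lack of calls therefore does not show that a parental effect is absent. With strain as a covariate or the pool as replicate block, no carrier was called. The smallest p-values under the labels belonged to genes with few reads: Slc24a2 (10 B and 6 D reads), Slc45a3 (6 B and 2 D) and Slc16a3 (27 B and 24 D), each at an adjusted p of 1. Whether the D to B ratio differed between the sexes was tested as an interaction, and again no carrier was called, with the labels (background 0.102%) or the names of the tables (background 0%), while 0 carriers with the labels and 2 with the names had an unadjusted p under 0.05; DESeq2 called 0 by either. This fit had no term for the pool, and of all genes 65 with the labels and 108 with the names had such a p. That is again fewer than chance gives, so the same limit applies. Among carriers the smallest p with the labels was that of Slc18a2, the vesicular monoamine transporter. Its B reads were 27, 12, 5 and 11 and its D reads 12, 4, 20 and 6, so that the library labelled BxD male alone had more D reads (adjusted p = 1). Slc16a5, with 5 B and 1 D reads, and Slc25a35, with 381 B and 459 D reads, followed at the same adjusted p.

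The sum of B and D reads measures the level of a carrier whatever the allele. In bulk tissue fewer cells of a type and less RNA per cell cannot be told apart. With the labels, 0 of 130 carriers passed the test between sexes, beside 0% of all genes, and 6 had an unadjusted p under 0.05; DESeq2 also called 0 (0.0508% of all genes). Among the smallest p-values were those of Slc27a5, a bile acid and fatty acyl-CoA synthetase (2.62, 0.49, 27.2 and 2.79 CPM, adjusted p = 0.938), and Slc27a1 at the same adjusted p. With the identity of the table names, which the X-chromosome reads followed, 3 carriers were called, beside a background of 2.77% (218 genes). In that identity the library labelled DxB female is a male pool and the library labelled BxD male a female one.

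Slc30a2, a zinc transporter known from secretory epithelia such as mammary gland, had 1.97, 33.9, 2.99 and 18.3 CPM. Both pools of males by this identity lay far above both pools of females (log2 3.40 ± 0.40, adjusted p = 0.000339). Slc7a9, the light chain of a cystine and basic amino acid transporter of kidney and gut, had 0, 8.10, 0 and 3.41 CPM, with 44 reads in the library labelled DxB female and the DxB male pool together and 0 in the other 2, at least 16.3-fold higher (adjusted p = 0.00447, and 0.138 without the library labelled DxB female). Of the 7 markers of mammary and other epithelium only Cdh1 had a SNP, and it had 0, 15.7, 0 and 7.48 CPM, the same pools as Slc7a9. The epididymal markers, 5 of 7 counted, summed to 0.24, 0, 0 and 161 CPM, so they were at 0 in the library where Slc30a2 and Slc7a9 were highest. The part of either list in these differences was not tested.

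Slc6a4 went the other way. It had 48.7, 10.3, 21.7 and 9.93 CPM, with both pools of females by this identity above both pools of males (log2 -1.80 ± 0.35, adjusted p = 0.0122). The call was lost without the library labelled DxB female (0.148) or the DxB male pool (0.118). Markers of peripheral nerve, 3 of 5 counted, summed to 39.1, 10.9, 26.8 and 8.37 CPM, in the same order of pools as the level of Slc6a4, and skeletal muscle markers, 3 of 6 counted, to 20.5, 0.72, 10.2 and 0.30 CPM. Their part in this difference was not tested. The D excess of Slc6a4 described above was present in pools of high and of low level alike.

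**Figure D5:**
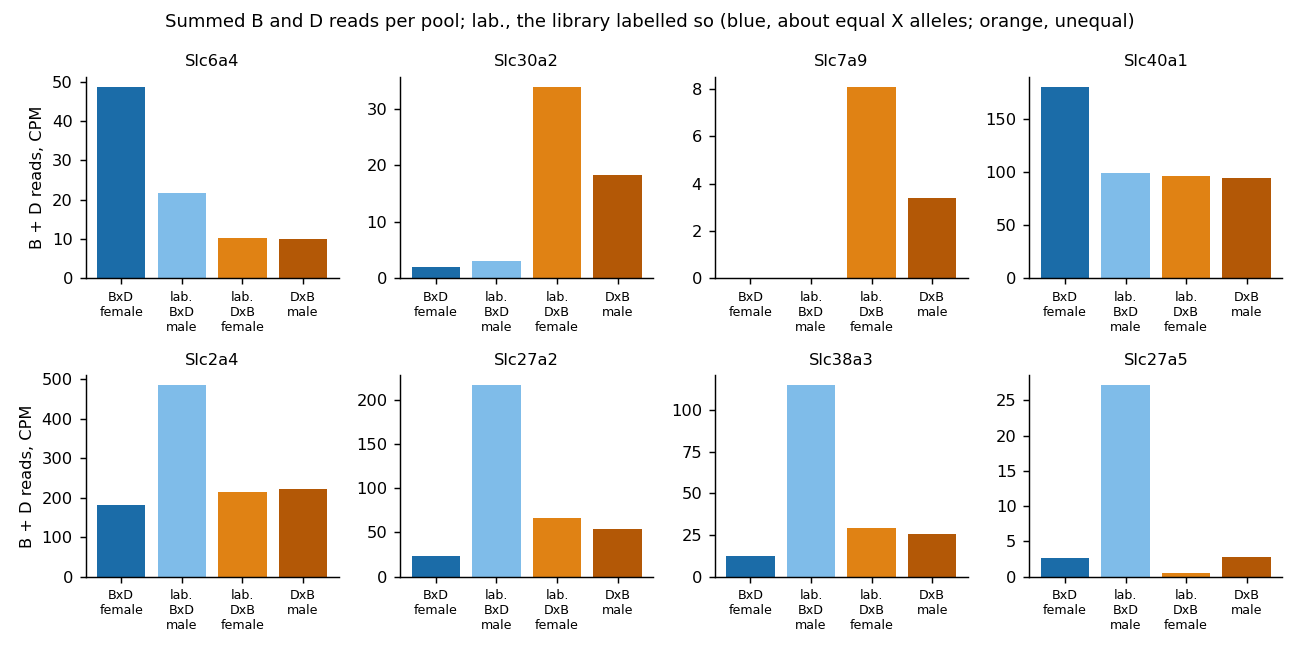
Summed B and D reads of 8 carriers in CPM, 1 bar for each pool, so no error is shown; axes start at 0 and differ in range. Slc30a2 and Slc7a9 are high in the library labelled DxB female and in the DxB male pool, Slc6a4 in the other 2, and Slc2a4, Slc27a2, Slc38a3 and Slc27a5 are highest in the library labelled BxD male.

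The library labelled BxD male stood apart in several carriers, the following of which were picked after their values were seen. Slc2a4 had 485.5 CPM there and 182.7 to 221.2 CPM in the other pools. Slc27a2, a fatty acid transport protein with acyl-CoA synthetase activity, had 216.8 CPM there and 22.9 to 66.0 CPM elsewhere. Slc38a3, a glutamine transporter, had 115 CPM there and 12.2 to 29.2 CPM elsewhere. This library also had the highest level of Ucp1, the uncoupling protein of brown fat, with 34.9, 0.24, 415 and 1.20 CPM over the pools. Each of these differences rests on 1 pool.

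A list of 56 transport genes outside the Slc symbols was read in the same way, and 26 of them were counted. Of all genes tested, 12.9% were called with more B and 4.98% with more D reads. More B reads were called in 3 of the 26, Mtch2 (1655 B and 0 D), Mfsd5 (1239 B and 1 D) and Brp44l, a subunit of the mitochondrial pyruvate carrier (87 B and 3 D). More D reads were called in 3, the uncoupling protein Ucp2 (8933 B and 11595 D, log2 0.51 ± 0.14, adjusted p = 0.0267), Mfsd11 (0.46, adjusted p = 0.029) and Slco3a1 (0.70, adjusted p = 0.0357). The 3 genes with more B reads had almost no D reads at all, whereas the 3 with more D reads differed by less than a log2 ratio of 1. So few D reads do not show that the D strain carries the D bases listed for Mtch2, Mfsd5 and Brp44l.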

How the data were processed

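RNA-seq of 4 gonadal fat pools was used. According to the study's methods and the labels, poly(A) RNA was sequenced in 50 bp reads, mapped to mm9 with mrsFAST and, for reads left over, TopHat (version 1 by the submitters' processing notes), and uniquely mapped mates were counted as single reads. The deposited values are raw counts of B and D reads per SNP, made by the authors with no normalization. Whether strand was used is not given in the sources used here, so reads of overlapping genes cannot be told apart. PCR duplicates can make counting intervals too narrow.

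Counts at SNPs in exonic rows of chromosomes 1 to 19 were summed per gene. A SNP within 18 bp of the last one kept in its exon was left out, and a position listed under several genes was counted once, under the first gene by alphabet. B and D libraries were compared over all 7872 genes with at least 1 count by the quasi-likelihood test of edgeR 4.0.16 (TMM, Benjamini-Hochberg adjustment, threshold 0.05; log2 ± SE) in R 4.3.3, with DESeq2 1.42.0 as an alternative. Each group has 1 pool. In the strain test the B and D libraries were separate samples, with no term for the pool. Its p-values and SE therefore measure the spread of each allele's level between the 4 pools, not the spread of the D to B ratio. For Slc2a4 the SE was 0.36, and 0.07 with the pool as replicate block. The test of totals compared the pools of 1 sex with those of the other. A bound written "at least" sets 0 reads to 3 over the pools compared. CPM of carriers used TMM sizes of the summed counts, CPM of markers and Ucp1 plain totals. Both alleles of a pool come from the same RNA, and their deviations from the strain means correlated at 0.471 to 0.607 over 5840 genes; the fit with the pool as replicate block is given where it changed a call.

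The fits were tested on simulated counts with known changes. The members, the lists of genes and the tests were chosen with earlier results of these data known. Named genes were called members with the 10 most extreme ratios on each side (10 or more reads of the weaker allele, 4 pools alike), called members with fewer such reads, the 10 members with the most reads, listed fat transporters, and called members, or the 3 with the smallest p, in each other comparison. Gene models were GENCODE M1 (135 of 137 members matched) and bases came from mm9. Some members that this rule names are not reported here.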

Additional observations from a re-analysis of the deposited data

Results flagged for a closer look

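The level or ratio of a named carrier was marked where 1 of the 4 pools lay far from the other 3, by a gap that exceeded Dixon's 95% critical share of the whole range. This held for 4 of 65 values examined, and chance alone marks about 1 in 20. Slc2a4 was at 485.5 CPM in the library labelled BxD male and at 182.7, 215.4 and 221.2 CPM in the others. Slc27a5, a bile acid and fatty acyl-CoA synthetase, was at 27.2 CPM in the same library, beside 2.62, 0.49 and 2.79 CPM. Slc40a1 was at 180.3 CPM in the BxD female pool, beside 96.4, 99.0 and 94.3 CPM. Slc7a7 was at 51.1 CPM in the library labelled BxD male, beside 52.7, 52.5 and 52.7 CPM, a gap of small size in a gene whose pools hardly differed.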

How the results depend on the processing

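The number of carriers called in the strain test was 18, and it moved by over 1.5 times under only 2 of the alternatives run: to 9 without SNPs under 1% of one allele and to 36 with the pool as replicate block. The block changed no call of the 18, and none of the parent or strain by sex comparisons of carriers. Without 1 pool the count was 13 to 17 in exons, with 13 or 14 of the 18 genes among them. In introns it was 10 to 12, beside 13 with all pools. For parent, strain by sex and total by sex with the labels it was 0. The count for total by sex rose from 0 to 3 with the identity of the table names, in edgeR and in DESeq2, and then ran from 1 (without the library labelled DxB female) through 2 (without the DxB male pool) and 13 (without the BxD female pool) to 16 (without the library labelled BxD male). Close SNPs taken as chains, the fit without SNPs listed under several genes, the intronic fits without 1 pool and the combined fits on the identity of the table names were chosen after seeing the data.

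Ratios changed sign as follows. Without SNPs under 1% of one allele, Slc25a3 went to 0.30, Slc9a3r2 to -0.0089 and Slc2a1 to 0.13. With 1 library size per pool, Slc9a3r2 went to -0.091 and Slc3a2 to -0.0060. Without 1 pool Slc2a1 ran from -0.22 to 0.17. The male to female total of Slc30a2 was -0.76 with the labels and 3.40 with the table names (3.40 with DESeq2, 3.12, 2.88, 3.72 and 3.77 without each pool in the order of the report); with the labels it ran from -2.56 to 2.41 without 1 pool. That of Slc7a9 was -1.28 and 7.54 (7.07 with DESeq2, 7.48, 6.76, 7.54 and 8.11 without each pool), and from -7.09 to 5.71 with the labels without 1 pool. That of Slc6a4 was -0.89 with the labels and ran from -1.60 to 0.63 without 1 pool.

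Depth limits the 19 carriers under 10 reads and the 23 with 1 counted SNP.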
